A study of Homo sapiens with 24 samples.

Results

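The comparison of irradiated giant cells with untreated parental cells took in 12 of the 24 libraries of the series, 6 of polyploid giant cancer cells (PGCC) and 6 of untreated parental cells (UT), and left out every library exposed to the ceramidase inhibitor LCL521. PPC1 is an established human prostate cancer cell line, and both groups came from this single line. Cells of both groups were plated on day 1. UT cells received no treatment and were harvested on day 5. PGCC were given 8 Gy of radiation on day 2, detached with trypsin on day 5 and collected from a filter of 20 micron pores. No filtration is described for UT cells, so that the effects of radiation and of selection for size cannot be told apart. The experiment was done 6 independent times with parallel harvests, and libraries of the same run carry the same replicate number. Members were all genes of the count table, of which 13812 of 48162 had enough counts to be tested.

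PGCC arise when cancer cells under stress stop dividing but go on copying their DNA, so that an enlarged cell holds several genomes. Cells with damaged DNA are known to secrete inflammatory proteins, many of them under the transcription factor NF-kappaB, and to switch on interferon-stimulated genes when nucleic acid sensors find DNA or RNA in the cytosol. The transcription factor ATF4 controls genes of amino acid synthesis and transport, and YAP controls genes that respond to cell shape and adhesion. RNA-seq of a bulk sample gives each gene's share of a library, so that RNA per cell, which may differ between giant and parental cells, was not measured, and fewer cells of a type and less RNA per cell cannot be told apart.

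Total counts lay between 14835246 and 19906601 in UT and between 15483220 and 19590419 in PGCC. Levels are given in CPM (counts-per-million), each gene's share of the library after scaling by edgeR's TMM method, and 3 counts, taken as a detection floor, correspond to 0.151 to 0.202 CPM. Such floors cover counting error only. The epithelial keratins KRT8, KRT18 and KRT19 were present in all 12 libraries. Other epithelial markers were low. CDH1 lay at 1.48 to 5.73 CPM and KRT7 at 1.15 to 4.71 CPM. EPCAM had 0 to 6 counts in UT and 3 to 17 in PGCC. Of 6 prostate markers, 5 were at or under the floor in all 12 libraries, among them KLK2, KLK3, TMPRSS2 and FOLH1, and only HOXB13 was abundant, at 312 to 867 CPM. Of 13 markers of blood, endothelial and stromal cells, 6 were at or under the floor in every library, including CD3E and HBB, and their summed level was 1.65 to 4.92 CPM in UT and 7.34 to 8.69 CPM in PGCC. PTPRC and PDGFRA made up most of the sum in PGCC and were higher there. Its part in the results was not tested. Replicates 4 and 5 stood apart from the others in both groups. In a principal component analysis the first component (57.1% of the variance) separated UT from PGCC. On the second (19.6%), UT_4 and UT_5 had scores of -53.2 and -50.9 and PGCC_4 and PGCC_5 of -21.5 and -13.3, against 6.38 or more in the other 8 libraries. These replicates are present in both groups, and paired differences are given apart for many of the genes in which they differed from the other pairs.

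Most genes tested differed between PGCC and parental cells, and the changes were unequal in size. With the replicate number as a block, 7765 of 13812 genes (56.2%) had an adjusted p under 0.05 by the quasi-likelihood test of edgeR after Benjamini-Hochberg correction. Among the called genes, 3851 genes were higher in PGCC (27.9% of those tested) and 3914 lower (28.3%). Counts of calls were thus nearly even, but 1608 of the higher genes and 367 of the lower genes differed by over 2-fold. Over 4-fold the numbers were 531 and 23, and over 8-fold 170 and 3. The size of change had a median of 0.37 on the log2 scale, and 3626 of the called genes changed by less than 1.5-fold. The direction was the same in all 6 pairs for 6637 of the called genes (85.5%), and the mean paired difference had the same sign in replicates 1, 2, 3 and 6 as in 4 and 5 for 7547 (97.2%). Scaling by library totals alone shifted the median over all genes from -0.01 to 0.08 (log2) and the split to 4591 higher (60.4%) and 3013 lower (39.6%), against 49.6% and 50.4% with TMM.

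**Figure D1:**
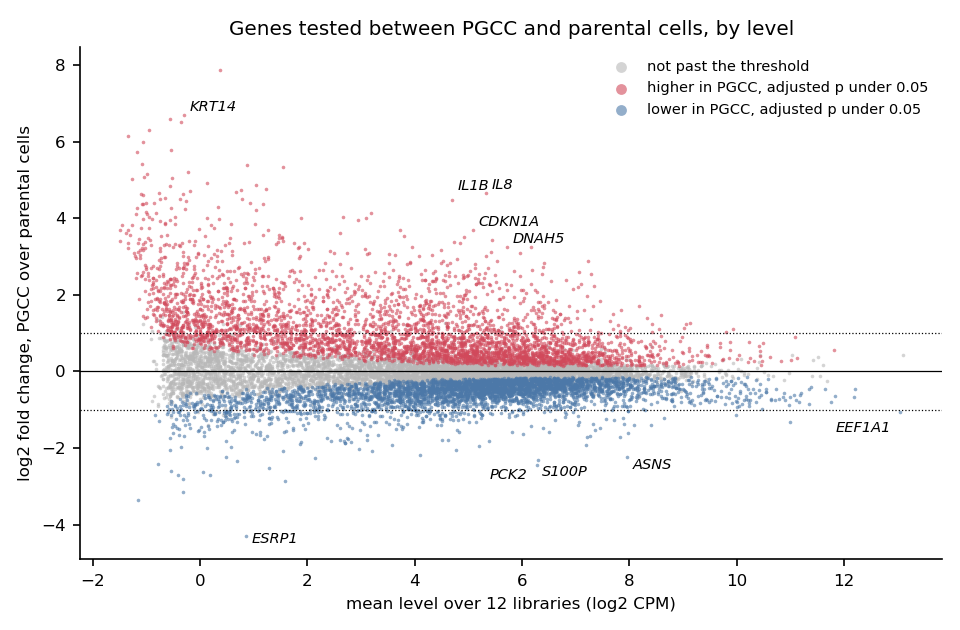
Each point is 1 of 13812 tested genes, with its mean level over the 12 libraries (log2 CPM) on the horizontal axis and its log2 fold change of PGCC over parental cells on the vertical axis. Red points were higher and blue points lower in PGCC at an adjusted p under 0.05, grey points did not pass, and dotted lines mark a 2-fold change, which 1608 called genes exceeded upward and 367 downward.

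The direction of change went with the level of expression. Below a mean of 2 log2 CPM lay 3187 genes, of which 37.4% were higher and 13.3% lower in PGCC, whereas of 634 genes at 8 log2 CPM or more, 20.8% were higher and 44.3% lower. Long intergenic RNAs (lincRNA) and antisense RNAs were higher more often than lower, with 34.5% against 17.0% of 388 lincRNA genes and 31.3% against 12.4% of 434 antisense genes. Protein-coding genes were split into 27.5% higher and 29.9% lower. Reads of an antisense gene and of its partner could not be told apart where strand was not counted. Gene length made little difference, with 26.8% higher genes in the shortest 2763 genes and 29.4% in the longest 2763. On the nuclear chromosomes, the share of higher genes ran from 23.4% on chromosome 16 to 34.9% on chromosome 21.

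More genes gave reads in PGCC than in parental cells. With every library thinned to 14835246 counts, the total of the smallest, 18227 to 19761 genes (median 18930) had at least 1 count in UT and 20613 to 22288 (median 21412) in PGCC. The groups did not overlap. The mean paired difference was 2520 ± 360.3 genes (SD, n = 6), with PGCC higher in 6 of 6 pairs (exact permutation test over sign changes, two-sided, p = 0.0312, which no design of 6 pairs can go below, adjusted p = 0.0391 over 5 measures). Cytosolic ribosomal protein genes, 85 in number, took a median of 10.2% of all counts in UT and 6.91% in PGCC, with a mean paired difference of -3.31 ± 0.392 percentage points (SD, n = 6; exact p = 0.0312, adjusted p = 0.0391). The 10 most counted genes took 5.13% to 6.54% in UT and 3.87% to 5.82% in PGCC, lower in PGCC in 6 of 6 pairs (exact p = 0.0312, adjusted p = 0.0391). Replication-dependent histone genes took 0.0144% to 0.0252% of counts in UT and 0.0475% to 0.0634% in PGCC, again without overlap (exact p = 0.0312, adjusted p = 0.0391). The share of the mitochondrial chromosome was higher in PGCC in 5 of 6 pairs, by 0.999 ± 1.07 percentage points (SD, n = 6; exact p = 0.0625, adjusted p = 0.0625), and did not pass the test. The shares of a library sum to a whole, so that these measures are not independent of each other.

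**Figure D2:**
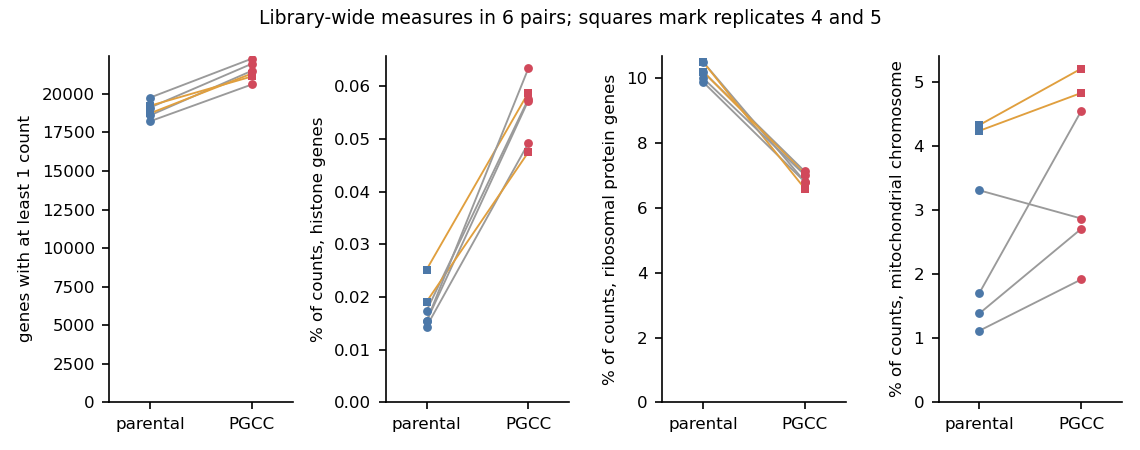
Each panel shows 1 measure in the 12 libraries: genes with at least 1 count at a common depth, and the percent of counts on histone genes, ribosomal protein genes and the mitochondrial chromosome. Lines join libraries of the same replicate number and squares mark replicates 4 and 5; detected genes and the histone share rose and the ribosomal share fell in 6 of 6 pairs, whereas the mitochondrial share rose in 5 of 6.

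The largest rises, among genes averaging 2 log2 CPM or more and moving 1 way in all 6 pairs, were led by secreted inflammatory proteins. IL8, the neutrophil-attracting chemokine also called CXCL8 (ENSG00000169429, hg19 chromosome 4 from 74606223 to 74609433), was measured at a median of 7.71 CPM (range 4.56 to 13.9) in UT and a median of 291 CPM (range 40.8 to 521) in PGCC, without overlap (log2 fold change 4.67, SE 0.61, edgeR adjusted p = 2.1e-04). PGCC_4 and PGCC_5 were the 2 lowest PGCC libraries, and PGCC exceeded UT by 5.72 in pairs 1, 2, 3 and 6 and 2.41 in pairs 4 and 5 on the log2 scale. IL1B, the cytokine interleukin-1 beta, had a median of 5.04 CPM (range 3.51 to 9.31) in UT and a median of 127 CPM (range 68.6 to 202) in PGCC (log2 fold change 4.48, SE 0.31, edgeR adjusted p = 6.7e-06). TNFAIP3, a ubiquitin-editing enzyme that ends NF-kappaB signalling, had a median of 2.01 CPM (range 0.586 to 3.74) in UT and a median of 44 CPM (range 9.56 to 61.4) in PGCC (log2 fold change 3.95, SE 0.22, edgeR adjusted p = 2.7e-06). BIRC3, a ubiquitin ligase of the same pathway that limits cell death, had a median of 1.83 CPM (range 0.82 to 2.14) in UT and a median of 39.2 CPM (range 5.88 to 59.7) in PGCC (log2 fold change 4.03, SE 0.41, edgeR adjusted p = 4.8e-05). For all 4 genes the groups did not overlap. The paired difference of IL1B was 5.07 in pairs 1, 2, 3 and 6 and 3.34 in pairs 4 and 5, and that of BIRC3 4.63 in pairs 1, 2, 3 and 6 and 2.22 in pairs 4 and 5.

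Other large rises belonged to genes of growth arrest, cell division and tissues other than prostate. CDKN1A, which encodes the cell cycle inhibitor p21, had a median of 11.5 CPM (range 5.06 to 14.2) in UT and a median of 166 CPM (range 51.7 to 184) in PGCC (log2 fold change 3.69, SE 0.11, edgeR adjusted p = 4.7e-07). In replicates 4 and 5 it was lower in both groups, and its paired difference was 3.79 in pairs 1, 2, 3 and 6 and 3.39 in pairs 4 and 5. KIF20A, a kinesin needed for cytokinesis, rose 11.3-fold and IQGAP3, a scaffold protein of dividing cells, 10.8-fold. For IQGAP3, UT_4 and UT_5 had a median of 39.5 CPM against 8.29 CPM in the other UT libraries, and the log2 fold change went from 3.44 to 4.19 without replicates 4 and 5. The paired difference was 4.21 in pairs 1, 2, 3 and 6 and 2.05 in pairs 4 and 5 for IQGAP3, and 4.01 in pairs 1, 2, 3 and 6 and 2.71 in pairs 4 and 5 for KIF20A. UTS2, the precursor of the vasoactive peptide urotensin 2, had a median of 2.01 CPM (range 1.18 to 3.69) in UT and a median of 32.9 CPM (range 26.8 to 53.1) in PGCC (log2 fold change 4.00, SE 0.23, edgeR adjusted p = 2.8e-06). ADAM12, a membrane-bound metalloprotease, rose 12.8-fold and the receptor tyrosine kinase gene ALK 11.5-fold. KRT34, a hair keratin, rose 12.1-fold, from a median of 2.25 CPM (range 0.345 to 3.25) to a median of 30 CPM (range 6.97 to 38.5). The 12 largest rises also included the histone gene HIST1H2BC, whose reads the counting may have split among near-identical copies.

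Among genes averaging 2 log2 CPM or more and moving 1 way in all 6 pairs, the 12 largest falls were smaller than the 12 largest rises. They held genes of amino acid metabolism, matrix and signalling. S100P, a calcium-binding protein (ENSG00000163993, hg19 chromosome 4 from 6694796 to 6698897), fell from a median of 189.5 CPM (range 137 to 234) in UT to a median of 34.3 CPM (range 22.1 to 48.3) in PGCC (log2 fold change -2.44, SE 0.15, edgeR adjusted p = 4.2e-06). PCK2, the mitochondrial enzyme that makes phosphoenolpyruvate, fell from a median of 155 CPM (range 119 to 309.8) to a median of 34.7 CPM (range 22.3 to 71.6) (log2 fold change -2.31, SE 0.26, edgeR adjusted p = 8.0e-05). ASNS, asparagine synthetase, fell from a median of 481 CPM (range 378 to 860.2) to a median of 117 CPM (range 71.3 to 193) (log2 fold change -2.24, SE 0.23, edgeR adjusted p = 4.7e-05). The groups did not overlap for these 3 genes. SSTR5, a somatostatin receptor, had a log2 fold change of -1.93 and its antisense gene SSTR5-AS1 of -1.94, and their reads may not have been told apart. POSTN, the matrix protein periostin, had a log2 fold change of -2.18, PAPPA2, a protease of insulin-like growth factor binding proteins, of -2.27 and MMP10, a matrix metalloproteinase, of -1.88. CAMKK1, a calcium-dependent kinase, ANK2, a membrane skeleton protein, ZBTB12, a zinc finger protein, and SLC1A3, a glutamate transporter, had log2 fold changes between -2.07 and -1.93. Falls were deeper in pairs 4 and 5 for PAPPA2 (-1.88 in pairs 1, 2, 3 and 6 and -2.93 in pairs 4 and 5), ANK2 (-1.62 in pairs 1, 2, 3 and 6 and -2.71 in pairs 4 and 5) and MMP10 (-1.47 in pairs 1, 2, 3 and 6 and -2.55 in pairs 4 and 5).

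The most abundant genes changed less. EEF1A1, the elongation factor that brings transfer RNA to the ribosome, fell from a median of 12167 CPM (range 10776 to 13705) to a median of 5996 CPM (range 5033 to 6223) without overlap (log2 fold change -1.07). EEF2, which moves the ribosome along, had a log2 fold change of -0.80 and GNB2L1, the ribosome-bound scaffold RACK1, of -0.84. ACTB, the beta-actin often used as a reference gene, had a log2 fold change of -0.47, but its paired difference was -0.70 in pairs 1, 2, 3 and 6 and -0.02 in pairs 4 and 5. Among abundant higher genes were VCL, the adhesion protein vinculin (0.66), and COTL1, an actin-binding protein (0.37), and for both the groups overlapped although all 6 pairs were higher.

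**Figure D3:**
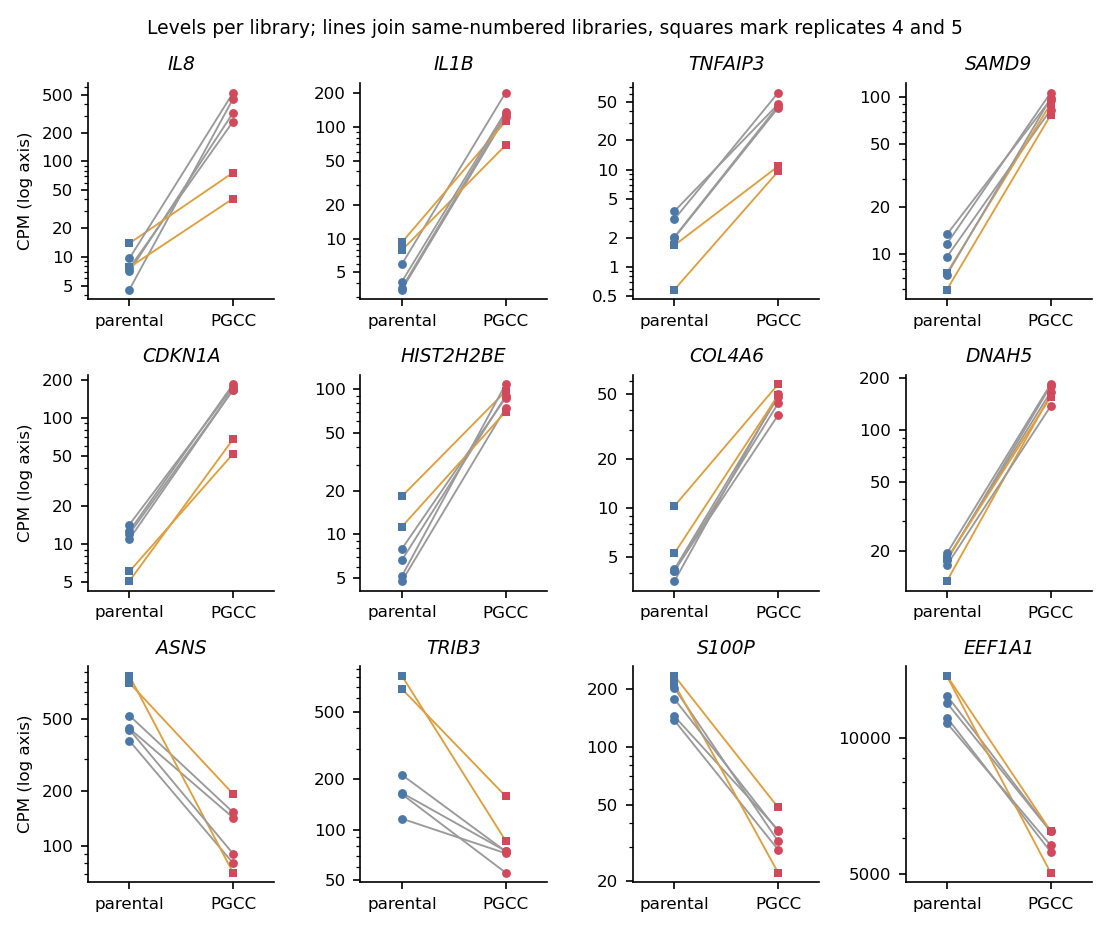
Each panel shows 1 gene's CPM on a log axis in the 12 libraries, with lines between libraries of the same replicate number and squares for replicates 4 and 5. The 8 genes in the upper rows rose without overlap of the groups, with smaller PGCC levels of IL8, TNFAIP3 and CDKN1A in replicates 4 and 5, and the 4 genes in the lowest row fell, with the highest parental levels of ASNS and TRIB3 in replicates 4 and 5.

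The genes were next read in 30 lists that hold 806 genes of the table, of which 407 were called. The 806 include genes too low to test, so that this count cannot be set against the 56.2% called among all genes tested. Beside each list stands its median log2 fold change, against -0.01 for all genes tested. Counts of called members are to be read against the shares of all genes tested, 27.9% higher and 28.3% lower. A value in brackets after a gene is its log2 fold change, which for genes near the floor depends on the prior count of the fit. Members such as IL1A, SERPINB2, COL17A1, DNAH6 and KRT14 passed the filter on counts through PGCC alone, which fixes their direction in part. Apart from a list with 2 tested markers of other cells, lists of histones, inflammatory cytokines and interferon-stimulated genes had the largest shares of higher members, and those of aminoacyl-tRNA synthetases and translation factors the largest shares of lower members.

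**Figure D4:**
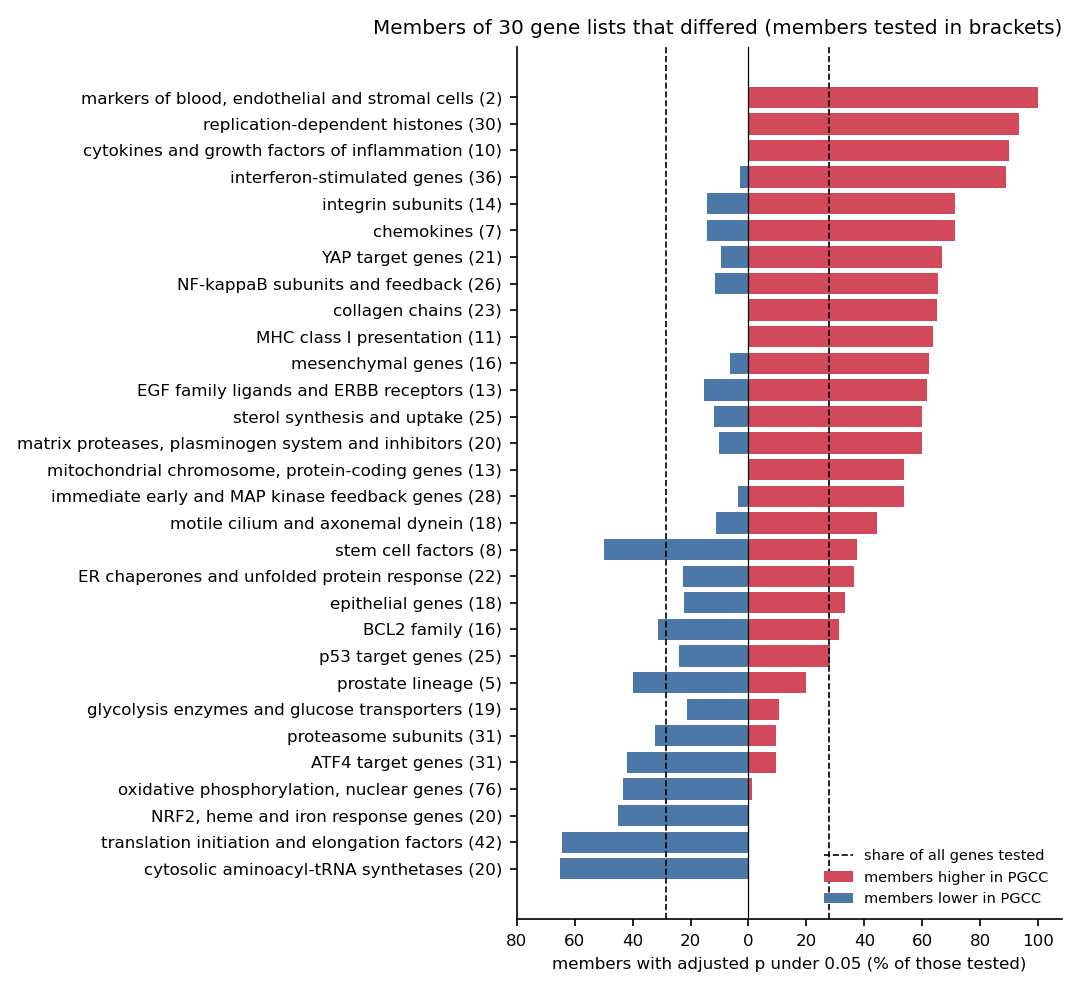
Bars give, for each of 30 gene lists, the percent of tested members that were higher (red, to the right) or lower (blue, to the left) in PGCC at an adjusted p under 0.05, with the number of tested members in brackets. Dashed lines give the same shares among all 13812 genes tested, 27.9% higher and 28.3% lower. Histones reach 93.3% higher and aminoacyl-tRNA synthetases 65.0% lower. Several histone genes passed the filter on counts through PGCC alone, which fixes their direction in part.

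Most tested inflammatory ligands rose in PGCC. Among chemokines, 5 of 7 tested members were higher and 1 lower (median log2 fold change 2.61), with 10 of 17 listed genes too low to test. The chemokine median was -0.01 in pair 4, 1.09 in pair 5 and 3.19 or more in the other pairs. CCL20, which attracts lymphocytes and dendritic cells, had a median of 0.755 CPM (range 0.627 to 5.92) in UT and a median of 16.7 CPM (range 2.19 to 27.9) in PGCC (log2 fold change 3.35, SE 0.71, edgeR adjusted p = 0.0032), and the groups overlapped because of UT_4. Its paired difference was 4.56 in pairs 1, 2, 3 and 6 and 0.64 in pairs 4 and 5. CXCL2 and CXCL3, neutrophil attractants next to IL8 on chromosome 4, had log2 fold changes of 2.37 and 2.61, and CCL26, an eosinophil attractant, of 3.32. CXCL16 fell, from a median of 7.46 CPM (range 6.79 to 8.78) to a median of 4.81 CPM (range 3.39 to 5.42), and CCL28 (-0.34) was not called. Among cytokines and growth factors of inflammation, 9 of 10 tested members were higher and 0 lower (median 1.93). Of 18 listed genes, 8 were too low to test. IL32, a cytokine that induces other cytokines, had a median of 1.86 CPM (range 1.25 to 2.73) in UT and a median of 14.3 CPM (range 4.23 to 16.2) in PGCC (log2 fold change 2.65, SE 0.23, edgeR adjusted p = 2.1e-05). IL1A, a relative of IL1B, had a median of 0.0596 CPM (range 0 to 0.234) in UT and a median of 1.69 CPM (range 1.1 to 2.55) in PGCC. With 0 to 4 counts in UT and 20 to 45 in PGCC, it passed the filter on counts through PGCC alone. Paired differences were 2.95 in pairs 1, 2, 3 and 6 and 1.79 in pairs 4 and 5 for IL32, and 3.83 in pairs 1, 2, 3 and 6 and 2.20 in pairs 4 and 5 for IL1A. The alarmin IL33 (2.50), LIF (1.95), CSF3 (1.91) and IL11 (1.89) were also higher, with log2 fold changes in brackets, and IL7 (-0.20) was not called.

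The NF-kappaB list joined subunits, inhibitors and enzymes that start or stop the pathway, and 17 of 26 tested members were higher and 3 lower (median 0.55). Subunits of the alternative branch, NFKB2 (1.14) and RELB (0.99), and its kinase MAP3K14 (1.51) were higher, while NFKB1 (0.05), RELA (-0.03) and REL (0.24) were not called. The inhibitors NFKBIA (1.05) and NFKBIE (1.13), their relative NFKBIZ (0.78) and the adaptor TRAF1 (3.50) were higher. IKBKG, the regulatory subunit of the kinase that releases NF-kappaB, fell from a median of 22.3 CPM (range 17.2 to 24.4) to a median of 15.2 CPM (range 13.6 to 18.1), and the kinase subunit CHUK (-0.39) and TNIP2 (-0.44) were lower. The median over the list was 0.76 in pairs 1, 2, 3 and 6 and 0.11 in pairs 4 and 5. For chemokines these values were 3.44 and 0.54, and for the cytokines 2.18 and 1.53.

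Promoters of the list members, whether called or not, were searched for motifs. Promoters were matched by symbol or synonym to RefSeq sequence on GRCh38.p14, another build than that of the count table, from 250 bases before to 50 after the start of the gene. The NF-kappaB-like motif GGANNTTCC, on either strand, was present in 7 of 22 (31.8%) promoters of the NF-kappaB list, 8 of 13 (61.5%) of the chemokines and 3 of 12 (25%) of the cytokines, against 1253 of all 27305 promoters (4.59%). Among called members alone, the motif was present in 5 of 17, 3 of 5 and 1 of 5 promoters of these lists. A match is a description of the letters and not a bound site. For IL8 (chr4:73740319-73740568, plus strand) and TNFAIP3 (chr6:137867009-137867258, plus strand), the members with the largest rises among called genes with a match upstream, the 250 bases before the start are shown with the motif in capitals.
IL8: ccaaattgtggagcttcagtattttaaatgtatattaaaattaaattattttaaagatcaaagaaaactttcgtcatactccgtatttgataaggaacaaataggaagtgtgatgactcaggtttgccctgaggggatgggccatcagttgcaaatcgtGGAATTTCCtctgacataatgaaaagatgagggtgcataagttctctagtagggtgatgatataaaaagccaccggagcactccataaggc
TNFAIP3: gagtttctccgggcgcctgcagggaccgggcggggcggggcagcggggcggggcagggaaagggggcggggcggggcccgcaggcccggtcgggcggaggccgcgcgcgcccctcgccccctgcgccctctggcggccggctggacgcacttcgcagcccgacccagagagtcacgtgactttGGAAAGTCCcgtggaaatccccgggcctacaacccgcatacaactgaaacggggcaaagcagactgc
The motif began 91 bases before the start of IL8 and 67 bases before that of TNFAIP3.

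Interferon-stimulated genes rose in PGCC, with a median above 0 in every pair. Of this list, 32 of 36 tested members were higher and 1 lower (median 1.71), and the median lay between 1.46 and 2.05 in each of the 6 pairs, 1.60 in pairs 4 and 5. SAMD9, which restrains viruses and translation (ENSG00000205413, hg19 chromosome 7 from 92728829 to 92747336), had a median of 8.56 CPM (range 5.92 to 13.3) in UT and a median of 93.1 CPM (range 76.3 to 106) in PGCC (log2 fold change 3.34, SE 0.13, edgeR adjusted p = 1.0e-06). Its neighbour and relative SAMD9L had a log2 fold change of 3.40. The oligoadenylate synthetases OAS1 (1.94), OAS2 (3.15) and OAS3 (3.08), which activate RNA decay, and the related OASL (2.39) were higher. BST2, which tethers viruses to the cell surface (2.84), the GTPases GBP1 (2.95) and GBP2 (2.48), and ISG15, a ubiquitin-like modifier (0.99), were higher as well. IFIT1, IFIT2 and IFIT3, which bind viral RNA, had log2 fold changes of 1.39, 1.84 and 1.80, whereas IFIT5 fell, from a median of 30 CPM (range 22.8 to 44.7) to a median of 18.2 CPM (range 15.9 to 19.9) (log2 fold change -0.77, SE 0.13, edgeR adjusted p = 9.3e-04).

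The genes upstream of this response, looked up after the rise was seen, were read by their roles. Interferons themselves were hardly counted: of 17 type I interferon genes in the table, 16 were at or under 3 counts in all 12 libraries, and the remaining one, IFNE, reached 7 counts at most. The type II gene IFNG and all 3 type III genes were at or under the floor as well. The 6 receptor chain genes tested did not pass edgeR's test, though 3 lay close to the threshold, IFNGR2 at 0.26 (adjusted p = 0.055), IFNLR1 at 0.81 (adjusted p = 0.058) and IFNAR1 at -0.16 (adjusted p = 0.062). All 5 of the tested nucleic acid sensors and adaptors were higher. These were the RNA sensors DDX58 (2.24) and IFIH1 (1.77) and their adaptor MAVS (0.20), the DNA sensor MB21D1, also called cGAS (0.63), and its adaptor TMEM173, also called STING (0.69). STAT2 (0.73), IRF3 (0.63), IRF7 (0.75) and TYK2 (0.35) were higher, and JAK1 (0.24) and JAK2 (-0.08) were not called. DDX58, IFIH1, STAT2 and IRF7 are also members of the list of interferon-stimulated genes. Their calls are therefore already counted there and add nothing separate.

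The interferon response-like motif GAAANNGAA was present in 24 of 37 (64.9%) promoters of interferon-stimulated genes, against 2264 of all 27305 (8.29%). Among called members alone, the motif was present in 19 of 26. The promoter of SAMD9 (chr7:93117980-93118229, minus strand) is shown as the member with the largest rise among called members with a match upstream, and that of IFIT5 (chr10:89414318-89414567, plus strand) as the only called member that fell.
SAMD9: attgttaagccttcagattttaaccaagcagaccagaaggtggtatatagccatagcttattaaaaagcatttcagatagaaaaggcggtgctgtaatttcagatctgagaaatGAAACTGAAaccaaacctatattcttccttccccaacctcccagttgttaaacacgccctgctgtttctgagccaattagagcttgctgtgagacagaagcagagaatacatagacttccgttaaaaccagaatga
IFIT5: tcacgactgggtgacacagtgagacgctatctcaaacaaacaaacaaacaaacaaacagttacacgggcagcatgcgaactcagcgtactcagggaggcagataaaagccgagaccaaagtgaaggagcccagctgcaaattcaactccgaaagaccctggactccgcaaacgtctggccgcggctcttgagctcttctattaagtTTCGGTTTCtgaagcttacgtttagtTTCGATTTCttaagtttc
SAMD9 held 1 match and IFIT5 held 2, in genes that moved in opposite directions.

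Genes that present antigen on MHC class I were higher or not called. In this list, 7 of 11 tested members were higher and 0 lower (median 0.49). B2M, the light chain shared by all class I molecules, rose from a median of 360.5 CPM (range 337 to 422) to a median of 689 CPM (range 594 to 819), and the peptide-trimming enzyme ERAP2 from a median of 7.15 CPM (range 4.14 to 8.84) to a median of 23 CPM (range 16.7 to 26.6), both without overlap. NLRC5, the activator of class I genes (2.69), and TAPBP (0.75), which helps load peptides, were higher on the log2 scale.

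The p53 target genes had no common direction. Of this list, 7 of 25 tested members were higher and 6 lower (median 0.13), shares near those of all genes. CDKN1A was nonetheless among the 12 largest rises of genes averaging 2 log2 CPM or more. PLK2, a kinase of the stress response, rose from a median of 23.8 CPM (range 16.1 to 39.4) to a median of 98.5 CPM (range 62.7 to 118) (log2 fold change 1.89, SE 0.24, edgeR adjusted p = 1.8e-04), with paired differences of 2.34 in pairs 1, 2, 3 and 6 and 1.01 in pairs 4 and 5. FAS (1.54), DDB2 (1.76) and GADD45A (0.90) were higher. MDM2 (-0.21), RRM2B (-0.39) and SESN1 (-0.57) were lower, and ZMAT3, an RNA-binding target, fell from a median of 42.8 CPM (range 27.9 to 49.5) to a median of 18.3 CPM (range 17.4 to 21.3). Without replicates 4 and 5, 14 were higher and 7 lower. Of the BCL2 family, which decides on mitochondrial cell death, 5 of 16 tested members were higher and 5 lower. These shares, 31.2% each, are near those of all genes. The death-promoting PMAIP1 rose (log2 fold change 1.43, SE 0.27, edgeR adjusted p = 0.0017), though its paired difference was 1.96 in pairs 1, 2, 3 and 6 and 0.35 in pairs 4 and 5, and the death-promoting HRK (-1.38) and BCL2L11 (-0.84) fell. BCL2 itself, which blocks cell death, was lower (-0.60) and BCL2L1 higher (0.33). Without replicate 2, 3 members were higher.

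Immediate early genes and the phosphatases that damp MAP kinases were mostly higher. Here 15 of 28 tested members were higher and 1 lower (median 0.66), with FOS at 1.64, FOSB at 1.56, JUN at 0.94, KLF6 at 1.42 and DUSP1 at 1.15. DUSP5, a nuclear phosphatase of the kinase ERK, rose from a median of 60.3 CPM (range 50.1 to 137) to a median of 307 CPM (range 202 to 366) (log2 fold change 1.96, SE 0.27, edgeR adjusted p = 2.9e-04), with paired differences of 2.47 in pairs 1, 2, 3 and 6 and 0.90 in pairs 4 and 5. ATF3, a stress-induced factor, had a median of 2.93 CPM (range 2.35 to 21.3) in UT and a median of 35.4 CPM (range 15.1 to 71.8) in PGCC (log2 fold change 2.50, SE 0.82, edgeR adjusted p = 0.026). It was higher in 4 of 6 pairs, with a mean paired difference of 4.01 in pairs 1, 2, 3 and 6 and -0.43 in pairs 4 and 5, and its call was lost when replicate 1, 2, 3 or 6 was left out, with log2 fold changes of 2.00 to 2.25.

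Growth factor ligands of the EGF family were mostly higher in PGCC. In this list 8 of 13 tested members were higher and 2 lower (median 0.54). EGF rose from a median of 0.36 CPM (range 0.23 to 0.703) to a median of 4.15 CPM (range 3.62 to 5.06), and EREG from a median of 0.931 CPM (range 0.276 to 1.99) to a median of 5.5 CPM (range 5.03 to 7), both without overlap and in 6 of 6 pairs. The paired difference of EREG was 3.13 in pairs 1, 2, 3 and 6 and 1.35 in pairs 4 and 5. The other ligands HBEGF (1.89), EPGN (1.66), AREG (1.45) and BTC (0.54) were higher, and TGFA (-0.43) lower. The receptor EGFR had a log2 fold change of 0.30 and ERBB4 of 1.17, while ERBB2 fell (-0.33) and ERBB3 (-0.04) was not called.

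Genes of the matrix and its turnover were mostly higher. Among matrix proteases, the plasminogen system and their inhibitors, 12 of 20 tested members were higher and 2 lower (median 0.77). MMP13, a collagenase, rose from a median of 25.6 CPM (range 18.7 to 82.2) to a median of 211 CPM (range 142 to 370.4) (log2 fold change 2.72, SE 0.41, edgeR adjusted p = 4.9e-04), with a paired difference of 3.48 in pairs 1, 2, 3 and 6 and 1.13 in pairs 4 and 5. PLAT, a plasminogen activator, rose from a median of 29.9 CPM (range 19.4 to 34.8) to a median of 186 CPM (range 140.4 to 222) (log2 fold change 2.66, SE 0.13, edgeR adjusted p = 1.8e-06). The other plasminogen activator PLAU (2.53) and its receptor PLAUR (0.65) were higher too. The inhibitor SERPINB2, also called higher, had a median of 0.0827 CPM (range 0.057 to 0.345) in UT and a median of 3.35 CPM (range 1.18 to 5.09) in PGCC. MMP10 fell and MMP1 (-0.07) was not called. Of collagen chains, 15 of 23 tested members were higher and 0 lower (median 0.73). COL4A6, a basement membrane chain (ENSG00000197565, hg19 chromosome X from 107386780 to 107682727), rose from a median of 4.18 CPM (range 3.57 to 10.3) to a median of 48.5 CPM (range 37.1 to 57.4) (log2 fold change 3.24, SE 0.16, edgeR adjusted p = 1.8e-06). COL6A1 (1.02), COL6A2 (1.46) and COL6A3 (2.25), which form collagen VI, were all higher, and COL17A1, a chain of epithelial anchoring, went from a median of 0.0632 CPM (range 0 to 0.536) to a median of 3.64 CPM (range 2.86 to 3.98). COL1A1 (-0.19) was not called while COL1A2 (0.82) was higher.

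Integrins, which bind cells to the matrix, were higher for 10 of 14 tested subunits and lower for 2 (median 0.52). ITGA5, a fibronectin receptor chain, rose from a median of 17.3 CPM (range 15.5 to 19.7) to a median of 45.8 CPM (range 38.8 to 61.5) (log2 fold change 1.47, SE 0.09, edgeR adjusted p = 3.3e-06). ITGA3, a laminin receptor chain, fell from a median of 784 CPM (range 702 to 895) to a median of 577 CPM (range 484 to 647), and ITGB4, of the hemidesmosome, had a log2 fold change of -0.58. The number of higher subunits was 6 without replicate 1 or without replicate 3, and 6 without the block. Of mesenchymal genes, 10 of 16 tested members were higher and 1 lower (median 0.47). FN1, fibronectin, rose from a median of 8.67 CPM (range 5.45 to 14.5) to a median of 44.8 CPM (range 31 to 78.8), and S100A4, a calcium-binding protein of motile cells, from a median of 8.27 CPM (range 4.43 to 12.1) to a median of 35 CPM (range 24.9 to 39.6), while the matrix protein SPARC fell from a median of 354 CPM (range 299 to 437) to a median of 178 CPM (range 164 to 183). Among the factors that repress epithelial genes, SNAI2 (0.48) and ZEB1 (0.46) were higher, and SNAI1 (0.50), ZEB2 (0.22) and TWIST1 (-0.24) were not called.

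Epithelial genes had no common direction, with 6 of 18 tested members higher and 4 lower (median 0.08). These shares were 33.3% and 22.2%, against 27.9% and 28.3% of all genes tested. KRT8 rose from a median of 65.8 CPM (range 55.9 to 86.9) to a median of 171 CPM (range 142 to 219.6), whereas its partner KRT18 had a log2 fold change of -0.45 and was lower. PKP3, a desmosome protein, fell from a median of 57 CPM (range 54.1 to 62.1) to a median of 29.6 CPM (range 24.6 to 33.6), and the adherens junction protein CDH1 (-0.55) was not called. ESRP1, a splicing regulator of epithelial cells, had the lowest fold change of the lists. It was measured at a median of 3.46 CPM (range 0.855 to 65.4) in UT and a median of 0.451 CPM (range 0.302 to 1.13) in PGCC (log2 fold change -4.29, SE 0.67, edgeR adjusted p = 5.6e-04). Its high parental values came from replicates 4 and 5, with a median of 47.2 CPM in UT_4 and UT_5 against 1.48 CPM in the other UT libraries, and the groups overlapped. Without replicates 4 and 5 its log2 fold change was -2.32 (edgeR adjusted p = 5.6e-05). The related ESRP2, named after its values were seen, had a log2 fold change of -0.95 with paired differences of -1.34 in pairs 1, 2, 3 and 6 and -0.14 in pairs 4 and 5.

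YAP target genes were higher for 14 of 21 tested members and lower for 2 (median 0.48). CYR61, a secreted matricellular protein, rose from a median of 43.2 CPM (range 29.8 to 54.1) to a median of 234 CPM (range 115 to 323) (log2 fold change 2.36, SE 0.17, edgeR adjusted p = 7.5e-06), and the related CTGF had a log2 fold change of 1.53. AMOTL2, which binds YAP, rose (log2 fold change 1.67, SE 0.37, edgeR adjusted p = 0.0041), and its paired difference was 2.33 in pairs 1, 2, 3 and 6 and 0.37 in pairs 4 and 5.

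Replication-dependent histone genes had the largest share of higher members of the lists, apart from that of blood, endothelial and stromal markers with 2 tested genes. These genes are mostly expressed while DNA is copied, as mRNA without a poly(A) tail. Of 70 members in the table, 40 were too low to test, and 28 of 30 tested members were higher and 0 lower (median 2.40). The median lay between 1.36 and 2.70 in the 6 pairs. HIST2H2BE, an H2B gene, rose from a median of 7.32 CPM (range 4.77 to 18.3) to a median of 88.2 CPM (range 69.9 to 108) (log2 fold change 3.39, SE 0.26, edgeR adjusted p = 1.0e-05), with paired differences of 3.86 in pairs 1, 2, 3 and 6 and 2.50 in pairs 4 and 5. HIST1H2BJ rose from a median of 0.912 CPM (range 0.588 to 1.09) to a median of 14 CPM (range 12.8 to 16). HIST1H3E (-0.13) and HIST2H2AC (-0.56) were not called. Several of the 30 tested members passed the filter on counts through PGCC alone, which fixes their direction in part. HIST1H2BF had 0 to 3 counts in UT and 60 to 108 in PGCC, and HIST1H3D 1 to 8 and 42 to 104. With a minimum of 10 counts in every library, which removes such members, 11 members were higher. Near-identical copies may have shared reads, so that values of single histone genes are uncertain.

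ATF4 target genes had a lower median in pairs 4 and 5 than in the other pairs. Of this list, 3 of 31 tested members were higher and 13 lower (median -0.44), but the median was 0.01 in pairs 1, 2, 3 and 6 and -1.51 in pairs 4 and 5. Without replicates 4 and 5, 14 members were higher and 13 lower, with a median of -0.05. Parental cells of replicates 4 and 5 had the highest levels of TRIB3 and ASNS. TRIB3, a pseudokinase that restrains ATF4, had a median of 748 CPM in UT_4 and UT_5 and 163 CPM in the other UT libraries, against 122 and 73.4 CPM in PGCC of the same replicates. ASNS had medians of 823 and 439 CPM in UT and 132 and 117 CPM in PGCC. Its fall was present in both sets of pairs, -1.97 in pairs 1, 2, 3 and 6 and -2.81 in pairs 4 and 5, as was that of PCK2, -2.10 in pairs 1, 2, 3 and 6 and -2.75 in pairs 4 and 5. The serine synthesis enzymes PHGDH (-1.68) and PSAT1 (-1.24) and the amino acid transporter SLC7A5 (-0.94) were lower, while CTH, of cysteine synthesis, rose (log2 fold change 1.87, SE 0.50, edgeR adjusted p = 0.01), with paired differences of 2.87 in pairs 1, 2, 3 and 6 and 0.05 in pairs 4 and 5.

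The C/EBP-ATF-like motif TGATGNAA was present in 5 of 25 (20%) promoters of the ATF4 list and 6 of 13 (46.2%) of the aminoacyl-tRNA synthetases, against 1003 of all 27305 (3.67%). Among called members alone, the motif was present in 3 of 14 and 3 of 9. It is shown for ASNS (chr7:97872409-97872658, minus strand), the called member of the ATF4 list with the lowest fold change among those with a match, where it began 68 bases before the start.
ASNS: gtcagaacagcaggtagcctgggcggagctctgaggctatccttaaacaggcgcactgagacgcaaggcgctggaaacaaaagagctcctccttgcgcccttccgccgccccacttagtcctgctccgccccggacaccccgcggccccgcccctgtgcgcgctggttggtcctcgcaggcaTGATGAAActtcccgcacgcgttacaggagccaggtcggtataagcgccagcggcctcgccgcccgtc

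**Figure D5:**
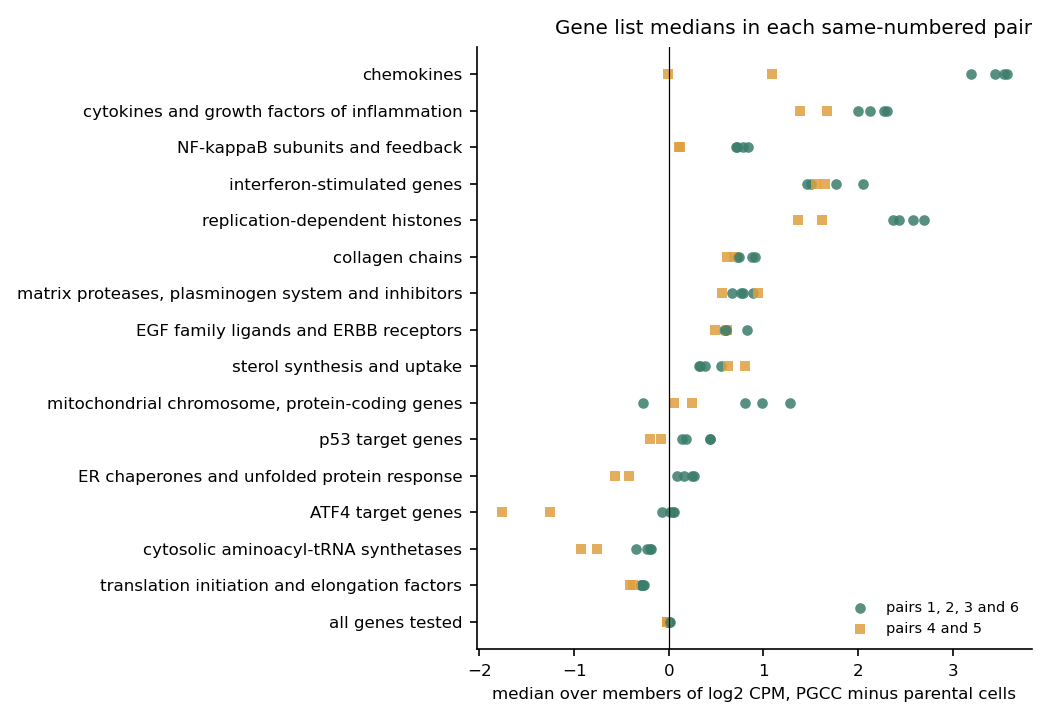
Each point is the median over the tested members of 1 gene list of the difference in log2 CPM between PGCC and parental cells in 1 same-numbered pair, for 15 lists and all genes tested. Green circles are pairs 1, 2, 3 and 6 and orange squares pairs 4 and 5; the 2 sets of pairs lie together for interferon-stimulated genes and collagens and apart for chemokines, NF-kappaB genes and ATF4 targets.

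The machinery of translation was lower in PGCC for many of its genes. Of cytosolic aminoacyl-tRNA synthetases, which load transfer RNAs, 0 of 20 tested members were higher and 13 lower (median -0.32, -0.93 to -0.19 in the 6 pairs). WARS fell from a median of 359 CPM (range 266 to 648) to a median of 145 CPM (range 106 to 228) and SARS from a median of 282 CPM (range 231 to 546) to a median of 133 CPM (range 109 to 173), both without overlap. The paired difference of SARS was -0.91 in pairs 1, 2, 3 and 6 and -1.95 in pairs 4 and 5. Of translation initiation and elongation factors, 0 of 42 tested members were higher and 27 lower (median -0.26, -0.41 to -0.26 in the pairs). Subunits of the initiation complex eIF3 were lower for EIF3E (-0.74), EIF3G (-0.60) and EIF3M (-0.51), while the cap-binding EIF4E (-0.23) and its scaffold EIF4G1 (-0.04) were not called. EIF2A fell from a median of 136 CPM (range 111 to 145) to a median of 71 CPM (range 59.7 to 79.6). With library totals in place of TMM, 7 synthetases were lower.

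Nuclear and mitochondrial genes of oxidative phosphorylation differed in direction. Of the nuclear genes, 1 of 76 tested members were higher and 33 lower (median -0.17), with ATP5G2, a subunit of ATP synthase, falling from a median of 168 CPM (range 154 to 195) to a median of 90.1 CPM (range 85.6 to 109) and SDHA, of succinate dehydrogenase, rising from a median of 262 CPM (range 228 to 287) to a median of 389 CPM (range 331 to 449.7). Of the 13 genes on the mitochondrial chromosome, 7 were higher and 0 lower (median 0.44). MT-ND1, a subunit of complex I, had a median of 1625 CPM (range 783 to 3145) in UT and a median of 3089 CPM (range 1773 to 4644) in PGCC (log2 fold change 0.90, SE 0.21, edgeR adjusted p = 0.006) and was higher in 5 of 6 pairs. The mitochondrial calls were unstable: 0 genes passed without the block, 3 without replicate 1, 2 or 3, 11 without replicate 6, and 12 without replicates 4 and 5. With library totals, 21 nuclear genes were lower. Glycolysis enzymes and glucose transporters had 2 higher and 4 lower members of 19 (median 0.03), with ENO1 (-0.40) lower, its brain-type relative ENO2 (0.72) higher and GAPDH (-0.04) not called.

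Genes of sterol synthesis and uptake were mostly higher, with 15 of 25 tested members higher and 3 lower (median 0.59, 0.32 to 0.81 in the 6 pairs). ACAT2, the enzyme of the first step, rose from a median of 12.3 CPM (range 6.26 to 20) to a median of 30.5 CPM (range 25.1 to 34.8) (log2 fold change 1.27, SE 0.21, edgeR adjusted p = 7.6e-04), and IDI1, an enzyme of isoprenoid synthesis, from a median of 22.2 CPM (range 15 to 31.4) to a median of 48.8 CPM (range 44.6 to 54.9) (log2 fold change 1.20, SE 0.12, edgeR adjusted p = 4.5e-05). HMGCS1 (0.85), MVD (0.93) and FDFT1 (0.71), from successive parts of the pathway, and the sterol-regulated INSIG1 (0.76) were higher. The transcription factor SREBF1 fell from a median of 236 CPM (range 213 to 383) to a median of 183 CPM (range 160.5 to 279.8), its escort SCAP was lower (-0.31), and SREBF2 (-0.20), the main factor of sterol genes, and SCARB1 (-0.17), a receptor of high-density lipoprotein, were not called.

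Quality control of proteins was mixed. Of chaperones of the endoplasmic reticulum and genes of the unfolded protein response, 8 of 22 tested members were higher and 5 lower (median -0.05). These shares were 36.4% and 22.7%, against 27.9% and 28.3% of all genes tested. MANF rose from a median of 94.4 CPM (range 80.5 to 105) to a median of 147 CPM (range 138 to 182). HYOU1 fell from a median of 397 CPM (range 349 to 631) to a median of 276 CPM (range 254 to 305). HSPA5 (-0.20) and XBP1 (-0.19) were not called. The median over this list was 0.19 in pairs 1, 2, 3 and 6 and -0.50 in pairs 4 and 5. Of proteasome subunits, 3 of 31 tested members were higher and 10 lower (median -0.09). The share of lower subunits, 32.3%, is near that of all genes. Among them were PSMD2 (0.50), which was higher, and PSMC2 (-0.43), which was lower. Of NRF2, heme and iron response genes, 0 of 20 tested members were higher and 9 lower (median -0.23). NQO1, a quinone reductase, fell from a median of 659 CPM (range 468 to 771) to a median of 261 CPM (range 246 to 281) (log2 fold change -1.22, SE 0.09, edgeR adjusted p = 8.8e-06), and FTH1, the ferritin heavy chain, from a median of 1963 CPM (range 1607 to 2757) to a median of 1045 CPM (range 919.7 to 1083) (log2 fold change -0.97, SE 0.09, edgeR adjusted p = 2.6e-05). HMOX1 (-0.06), the heme-degrading enzyme often used to read NRF2 activity, was not called.

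Some genes known from specialised tissues rose. Of motile cilium and axonemal dynein genes, 8 of 18 tested members were higher and 2 lower (median 0.37). DNAH5, a dynein heavy chain (ENSG00000039139, hg19 chromosome 5 from 13690440 to 13944652), rose from a median of 17.8 CPM (range 13.4 to 19.4) to a median of 164 CPM (range 138 to 185) (log2 fold change 3.26, SE 0.08, edgeR adjusted p = 1.8e-07), by nearly the same amount in each set of pairs, 3.21 in pairs 1, 2, 3 and 6 and 3.34 in pairs 4 and 5. DNAH6 had a median of 0.155 CPM (range 0.0575 to 0.214) in UT and a median of 4.59 CPM (range 3.57 to 5.53) in PGCC, whereas DNAH1 fell from a median of 14.6 CPM (range 11.3 to 17.9) to a median of 4.98 CPM (range 4.03 to 8.9), and the dynein chains DNAH7 (-0.24) and DNAH8 (-0.50) were not called. Of 18 stem cell factors in the table, 5 were at or under the floor in all 12 libraries and 8 were tested, with 3 higher and 4 lower. The DNA methyltransferase DNMT3B rose from a median of 5.4 CPM (range 4.97 to 6.07) to a median of 12.7 CPM (range 8.13 to 14.6) and the adhesion receptor CD44 from a median of 179 CPM (range 148 to 200.3) to a median of 307 CPM (range 252 to 319.6). BMI1, a Polycomb protein, fell from a median of 165 CPM (range 118 to 184) to a median of 76.2 CPM (range 71.9 to 95.1) and ALDH1A1 from a median of 1.78 CPM (range 1.14 to 2.41) to a median of 0.769 CPM (range 0.299 to 1.08). Of the prostate lineage, 1 of 5 tested members were higher and 2 lower. HOXB13 fell from a median of 764 CPM (range 564 to 867) to a median of 412 CPM (range 312 to 539) without overlap, and the transporter SLC45A3 had a log2 fold change of -0.64. The cation channel TRPM8 was higher (1.16), and STEAP1 (0.09) and STEAP2 (-0.16) were not called. PDGFRA, a receptor of stromal cells, had a median of 0.822 CPM (range 0.0575 to 1.14) in UT and a median of 3.15 CPM (range 2.73 to 3.38) in PGCC, and PTPRC, the leukocyte marker CD45, a median of 0.625 CPM (range 0.399 to 2.75) and a median of 3.01 CPM (range 2.38 to 3.98). The paired difference of PTPRC was 2.42 in pairs 1, 2, 3 and 6 and 0.16 in pairs 4 and 5, and that of PDGFRA 1.62 in pairs 1, 2, 3 and 6 and 3.36 in pairs 4 and 5.

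More genes were above the floor in PGCC alone than in UT alone, most of them at low counts. In all, 206 genes had at most 3 counts in every UT library and more than 3 in every PGCC library, of which 120 were protein-coding, against 5 genes for the reverse. Only 40 of the 206 passed the filter on low counts, and all 40 of these were called, which the selection of groups fixes in part. KRT14, a keratin of basal epithelium, had 0 to 2 counts in UT and 54 to 152 in PGCC (median 4.02 CPM). The hair keratins KRT37 and KRT38 had at most 2 counts in any UT library, and 32 to 76 and 33 to 93 counts in PGCC. TNFRSF9, a co-stimulatory receptor of T cells, had at most 3 counts in UT and 5 to 77 in PGCC, and MPP4, a scaffold protein of photoreceptors, at most 3 and 34 to 53. The genes lost to the floor were low in UT as well, with 6 to 14 counts of the protease inhibitor CSTA and 5 to 14 of OLFM2. No fold is given for these genes because their counts in 1 group are at or under the floor.

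Higher genes also lay next to each other. Runs of at least 4 neighbouring tested genes, all called in 1 direction and over 2-fold, were found 23 times among higher genes and 1 time among lower genes, from the 1608 genes over 2-fold higher and 367 over 2-fold lower. Genes too low to test were skipped between neighbours, and several members of the longest runs passed the filter on counts in PGCC alone. The longest, on hg19 chromosome 6 from 26115101 to 26217711, held 10 genes of the main histone cluster, and runs of 7 genes on chromosome 1 and 6 genes on chromosome 6 held histones as well. A run of 6 on chromosome 17 from 39164773 to 39648798 held the hair keratin genes KRT34, KRT36, KRT37 and KRT38 and the keratin-associated KRTAP3-1 and KRTAP2-3. In KRTAP3-1, 0 to 4 counts in UT stood against 101 to 339 in PGCC. Shorter runs held gene families of the response described for single genes, among them IL8, CXCL3 and CXCL2 on chromosome 4, GBP3, GBP1, GBP2 and GBP7 on chromosome 1, IFIT2, IFIT3 and IFIT1 on chromosome 10 and APOBEC3B, APOBEC3C, APOBEC3D and APOBEC3G on chromosome 22. Members of such families resemble each other in sequence and can share reads. The only lower run, on chromosome 20 from 300957 to 411610, held SOX12, TRIB3 and RBCK1 with NRSN2 and RP5-1103G7.4. The antisense gene RP5-1103G7.4 spans SOX12 and overlaps NRSN2 on the other strand, and their reads may not have been told apart. SOX12, a transcription factor, fell from a median of 188 CPM (range 161 to 319) to a median of 79.9 CPM (range 63.6 to 119), with paired differences of -1.23 in pairs 1, 2, 3 and 6 and -1.48 in pairs 4 and 5, while without replicates 4 and 5 NRSN2 and RP5-1103G7.4 lost their calls (edgeR adjusted p = 0.061 and 0.11).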

How the data were processed

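RNA-seq libraries of PPC1 cells were compared as deposited by the authors, as raw read counts per gene without normalization. Per the labels and the study's methods, paired-end reads were processed with CASAVA, aligned to hg19 with STAR and counted with HTSeq. The annotation release and strand setting are not given in the sources used here. DESeq2, which the submitters' notes also name, left no values in the table. No per-sample column was left unmapped.

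Calculations used R 4.3.3. Genes passing filterByExpr (minimum count 10, minimum total 15) were scaled by TMM and tested with edgeR 4.0.16, by the quasi-likelihood test with replicate number as block, Benjamini-Hochberg adjustment and a threshold of 0.05. SE is the size of the log2 fold change over the root of F. Log2 CPM carried a prior count of 2. DESeq2 1.42.0 and limma 3.58.1 served as alternatives, with RLE factors, library totals, other count filters, a gene length correction, no block, and libraries left out. The edgeR fit was tested on simulated data. Replicate numbers pair the libraries because harvests ran in parallel. Same-numbered libraries deviated together across genes (correlation 0.271 or more, median 0.375, against -0.0917 for other numbers). Within groups, chi-square per degree of freedom was 8.1 to 110 over 30 pairs of libraries.

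Named genes were the 12 largest rises and falls among called genes averaging 2 log2 CPM or more with 1 direction in 6 pairs, the 5 called genes of highest mean CPM each way outside ribosomal protein and mitochondrial genes, the 2 largest rises and falls per list averaging 0 log2 CPM or more, the 6 most abundant floor genes each way and the genes of the 3 longest runs each way. Other named genes were chosen after their values were seen. The groups, lists and tests were chosen with earlier results of these data known, and some genes are not reported here.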

Additional observations from a re-analysis of the deposited data

Results flagged for a closer look

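Of 305 groups of 6 libraries examined for the named genes and library measures, 10 held a library far from the other 5, by a gap of more than 0.625 of the whole range, where chance flags about 1 in 20. In parental cells, CCL20 reached 5.92 CPM in UT_4 against 1.34 in the next library, and HIST1H2BD 7.70 CPM in UT_4 against 4.05. COL4A6 reached 10.3 CPM in UT_5 against 5.29. At low counts, KRTAP3-1 had 0.228 CPM in UT_2, SERPINB2 0.345 CPM in UT_6 and COL17A1 0.536 CPM in UT_3. In PGCC, TRIB3 reached 158 CPM in PGCC_4 against 86.0 in the next library and ESRP1 1.13 CPM in PGCC_4 against 0.509. UTS2 reached 53.1 CPM in PGCC_2 and PSMA6 3.56 CPM in PGCC_6.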

How the results depend on the processing

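Of 2333 alternative values for 148 named genes, 2268 kept direction and side of the threshold, 65 kept the direction only and 0 reversed. Lost calls concerned 18 genes, most often CYP51A1, PKM, AMOTL1, SLC16A3 and SPRED2. Without the replicate block, 6541 genes were called, 6476 of them among the 7765. Without replicates 4 and 5, 8881 were called, and with each replicate left out in turn 6709 to 7607. Counts over 2-fold depended on the filter: with no filter 2642 genes were higher, and with 10 counts in every library 980 were higher and 238 lower.

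List counts that moved by more than 1.5 times were as follows. With no filter, 8 chemokines, 14 cytokines, 11 mitochondrial genes and 4 markers of other cells were higher. With 10 counts in every library the numbers were 5 integrins, 11 histones, 5 cilium genes and 0 markers of other cells. Without the replicate block, 3 BCL2 family members, 6 integrins and 0 mitochondrial genes were higher, and with DESeq2 without the block 3, 6 and 2. With library totals, 7 aminoacyl-tRNA synthetases, 21 oxidative phosphorylation genes, 4 proteasome subunits and 5 NRF2 and iron genes were lower. Without replicates 4 and 5, 14 p53 targets, 12 mitochondrial genes and 13 genes of the endoplasmic reticulum were higher and 9 glycolysis genes lower. Leaving out each replicate in turn gave 3 to 5 higher BCL2 family members, 6 to 12 integrins and 3 to 11 mitochondrial genes. Filters and left-out libraries change how many genes or samples are tested, and the cause of the other shifts was not tested.

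Library measures kept their direction, but 5 pairs cannot give an exact p under 0.0625 and 4 pairs under 0.125, so that these alternatives say nothing about stability. Without replicates 4 and 5 the differences were 2660 detected genes, 0.0412 percentage points for histones, -3.22 for ribosomal protein genes and -0.918 for the 10 most counted genes. Leaving out each replicate in turn gave 2445 to 2644, 0.0358 to 0.0397, -3.38 to -3.20 and -1.10 to -0.80. Depth limits genes near 3 counts per library.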
